A study of Equus caballus with 4 samples.

Results

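The antigen presentation genes followed here were *B2M*, *TAP1*, *TAP2*, *TAPBP*, *ERAP1*, *ERAP2*, *NLRC5*, *CIITA*, *CD74* and *CTSS*. They were chosen by name from the gene symbols on the arrays, with earlier results of these data known. Of these 10 genes, 8 had a probe under their own symbol, and these 8 carried 19 of the 43603 different probes, on arrays whose probes bore 14580 different symbols. For *CD74*, 1 probe was found only through its RefSeq accession, and no probe was found for *NLRC5*. The RNA came from cultured muscle stem cells of the horse, called equine satellite cells (ESC), on day 3 of differentiation. HMB is made in the body from leucine. The HMB-treated cells had 50 µM of it for 24 h, with 3 mM H2O2 in the last 1 h, and the control cells had the same H2O2 without HMB, so H2O2 was common to both groups. On each of 4 arrays, HMB-treated RNA in Cy5 was hybridized together with control RNA in Cy3. The dyes were never swapped, so treatment and dye cannot be told apart, and every control sample is labelled as replicate 1. Should all arrays have carried 1 control RNA, the spread among controls is missing from the errors. Per the methods, 1 culture with the best scores was picked from those of all horses, so the 4 replicates may come from 1 culture, and the p-values then measure only the spread between these arrays.

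Cells show peptides to T cells through 2 routes. In the class I route, the immunoproteasome cuts proteins of the cytosol, the transporter *TAP1*/*TAP2* moves the peptides into the endoplasmic reticulum, *ERAP1* and *ERAP2* trim them, and tapasin (*TAPBP*) loads them on a heavy chain that is held by beta-2-microglobulin (*B2M*). NLRC5 is the transactivator of class I genes. In the class II route, the transactivator *CIITA* switches on the class II chains together with the invariant chain *CD74*, and cathepsin S (*CTSS*) cuts the invariant chain in endosomes to free the groove. Class I is found on nearly all nucleated cells, whereas class II belongs mostly to professional antigen-presenting cells, and muscle cells are known to raise class I, and in part class II, under interferon.

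The probes are of 60 bases, and the sequences of *TAP1*, of the trimming peptidases and of the class II members are shown, since for these genes the results turn on what single probes could read. The sequences below run 5′ to 3′ as the scanner files give them, and the capitals mark the stop codon that ends the *CTSS* probe 1.
TAP1: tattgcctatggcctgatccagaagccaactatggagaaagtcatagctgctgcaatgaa
ERAP1 probe 1: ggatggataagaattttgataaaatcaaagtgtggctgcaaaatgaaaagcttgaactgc
ERAP1 probe 2: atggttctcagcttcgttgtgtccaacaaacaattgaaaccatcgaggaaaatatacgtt
ERAP2 probe 1: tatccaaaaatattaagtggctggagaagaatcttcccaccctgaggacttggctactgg
ERAP2 probe 2: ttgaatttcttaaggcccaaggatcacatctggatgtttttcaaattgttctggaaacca
ERAP2 probe 3: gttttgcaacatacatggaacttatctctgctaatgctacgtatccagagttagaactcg
CIITA: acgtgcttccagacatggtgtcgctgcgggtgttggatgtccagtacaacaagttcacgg
CD74: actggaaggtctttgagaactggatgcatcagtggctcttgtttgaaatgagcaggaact
CTSS probe 1: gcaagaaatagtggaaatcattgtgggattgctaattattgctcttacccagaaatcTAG
CTSS probe 2: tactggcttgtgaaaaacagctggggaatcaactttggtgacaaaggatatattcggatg

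On the EquCab1 build that the scanner files use, the *TAP1* probe lies at chr20:26856595-26856654 on the minus strand. The 5 *TAP2* probes, on the same chromosome and strand, start at bases 26838351 to 26838355 and are shifted by 1 base each, so they share 56 to 59 bases and measure 1 stretch of RNA. The *TAPBP* probe lies at chr20:27162359-27162418. In the gene order of the newer TB-T2T assembly, *TAP2*, *PSMB8*, *TAP1* and *PSMB9* follow each other directly. The 4 *B2M* probes lie between bases 141769463 and 141770643 of chromosome 1, on the minus strand, and share up to 40 bases. The *ERAP1* probes are neighbours without a gap, at chr14:71323974-71324033 and chr14:71324034-71324093. The *ERAP2* probes lie on the opposite strand of the same chromosome, at chr14:71194584-71194643, chr14:71194644-71194703 and chr14:71214177-71214236. The *CTSS* probe 1 lies at chrUn:80056687-80056746, on sequence not placed on a chromosome, and probe 2 spans 8791 bases there, so its 60 bases are not contiguous in the genome. The *CIITA* probe spans 225 bases at chr13:15756983-15757207, and the *CD74* probe spans 380 bases at chr14:26862718-26863097. Probes of different genes of the group shared runs of at most 9 bases. No exon is named for the probes in the files.

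All 6 class I loading genes were higher in the HMB-treated cells on every array, by an FC between 1.63 and 3.09 on the brightest tested probe. *CTSS* was higher by an FC of 3.89, the largest rise among the 7 genes tested. *CIITA* and *CD74* were at or near background in both groups and could not be tested. A probe was tested if at least 1 channel was well above background on all 4 arrays, and it was called at a limma adjusted p of 0.05 or less together with an FC of 1.3 or more. Of the 19 probes, 17 were tested and all of these were called higher, whereas of the 24669 tested probes on the arrays 28.6% were called, 12.1% higher and 16.4% lower. Among the 17, *ERAP2* probe 3 passed the filter only through its HMB channel. When both channels had to be well above background, 16 of 16 probes were called higher, against 11.2% of all tested probes. Counted by gene on the brightest tested probe, 7 of 7 were called higher, whereas of 8693 tested genes 27.4% were called, 10.2% higher and 17.2% lower. Because the genes were chosen with earlier results known, these counts are a description only. Since the RNA came from bulk cultures, more or fewer cells of a type and more or less RNA per cell cannot be told apart.

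**Figure D1:**
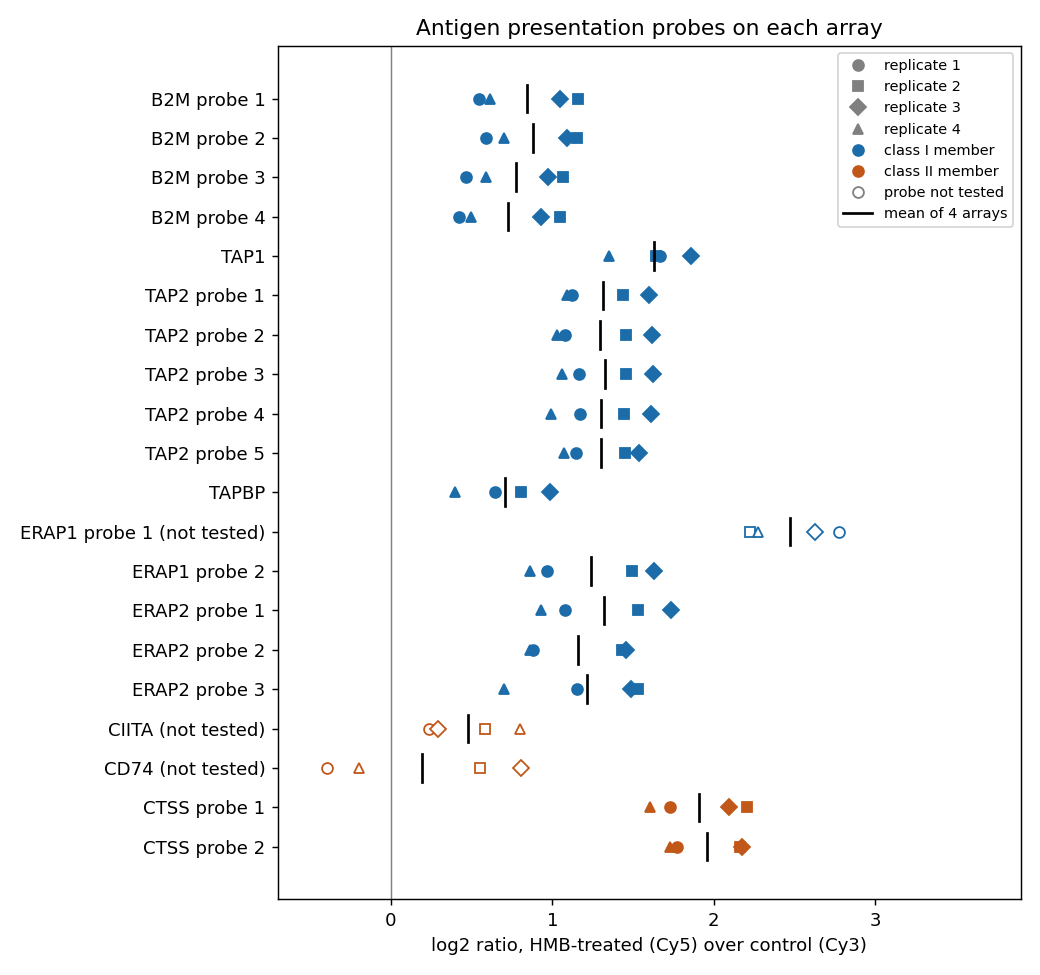
The log2 ratio of HMB-treated over control (x axis) for each probe (y axis) on each of the 4 arrays, with the bar at the mean and open symbols for probes that were not tested. Every filled symbol lies to the right of 0, the *CTSS* probes have means of 1.91 and 1.96, and the *CD74* values lie on both sides of 0.

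On the brightest tested probes, the transporter had the highest class I ratios. For *TAP1*, the log2 ratio was 1.66, 1.64, 1.86 and 1.35 on arrays 1 to 4, with a mean of 1.63 ± 0.21 (SD, n = 4) and an adjusted p of 5.80e-05 with limma. Its normalized signal ran from 178 to 227 in the control channel and from 453 to 820.5 in the HMB channel. For *TAP2*, the brightest of the 5 probes gave 1.15, 1.45, 1.54 and 1.07, with a mean of 1.301 ± 0.23 (SD, n = 4) and an adjusted p of 0.000174 with limma. The means of the 5 probes differed by at most 0.03 on the log2 scale. *TAPBP*, the tapasin that bridges the transporter and the empty heavy chain, had the smallest rise, with log2 ratios of 0.65, 0.81, 0.98 and 0.39 and a mean of 0.71 ± 0.25 (SD, n = 4, limma adjusted p = 0.00250). Its call was lost with limma's treat, which asks for an FC above 1.3 (adjusted p = 0.0706), and after scaling to the spike-in RNA, where the log2 ratio was 0.22.

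The light chain *B2M*, without which heavy chains do not reach the cell surface, had control signals between 29871 and 39292 on its brightest probe. On that probe, the log2 ratio was 0.42, 1.05, 0.93 and 0.50, with a mean of 0.72 ± 0.31 (SD, n = 4) and a limma adjusted p of 0.00422. The other 3 probes had means of 0.84, 0.88 and 0.77, so the probes differed by at most 0.16. The HMB signals of the brightest probe ran from 44737 to 74752. Arrays 2 and 3 stood clearly above arrays 1 and 4. The call of the brightest probe was lost with the methods' t-test (adjusted p = 0.0559), with treat (adjusted p = 0.102) and after scaling to the spike-in RNA, where the log2 ratio was 0.24, whereas *B2M* probe 2 was called under every alternative.

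The trimming peptidases rose as well. *ERAP1* probe 2 gave log2 ratios of 0.97, 1.496, 1.63 and 0.86, with a mean of 1.24 ± 0.38 (SD, n = 4) and a limma adjusted p of 0.00100. Its neighbour, probe 1, gave 2.77, 2.22, 2.63 and 2.27, but the control channel was not well above background on any array and the HMB channel was so on 3 arrays, hence this probe was not tested. Set against the lowest signal that counted as well above background, the HMB-treated signal of probe 1 was 1.77-fold higher on the deposited ratios. Other background corrections were not tested for this probe. With normexp, a model-based background correction, the log2 ratio of probe 2 was 0.59 and it was still called.

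For *ERAP2*, the brightest probe gave 0.88, 1.43, 1.46 and 0.86, with a mean of 1.16 ± 0.33 (SD, n = 4) and a limma adjusted p of 0.000830. Probe 1 had a mean of 1.32 ± 0.38, which was 0.49 with normexp and 0.72 without background correction, called in both. Probe 3 lies apart from the other pair, and its control channel was not well above background on any array. Its ratio of 1.22 is therefore given as a bound, at least 2.22-fold higher in the HMB-treated cells (limma adjusted p = 0.00111). The log2 ratio of probe 3 was 0.31 with normexp, where its call was lost, and 0.40 without background correction, so this bound holds for the deposited ratios and not for other background corrections.

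**Figure D2:**
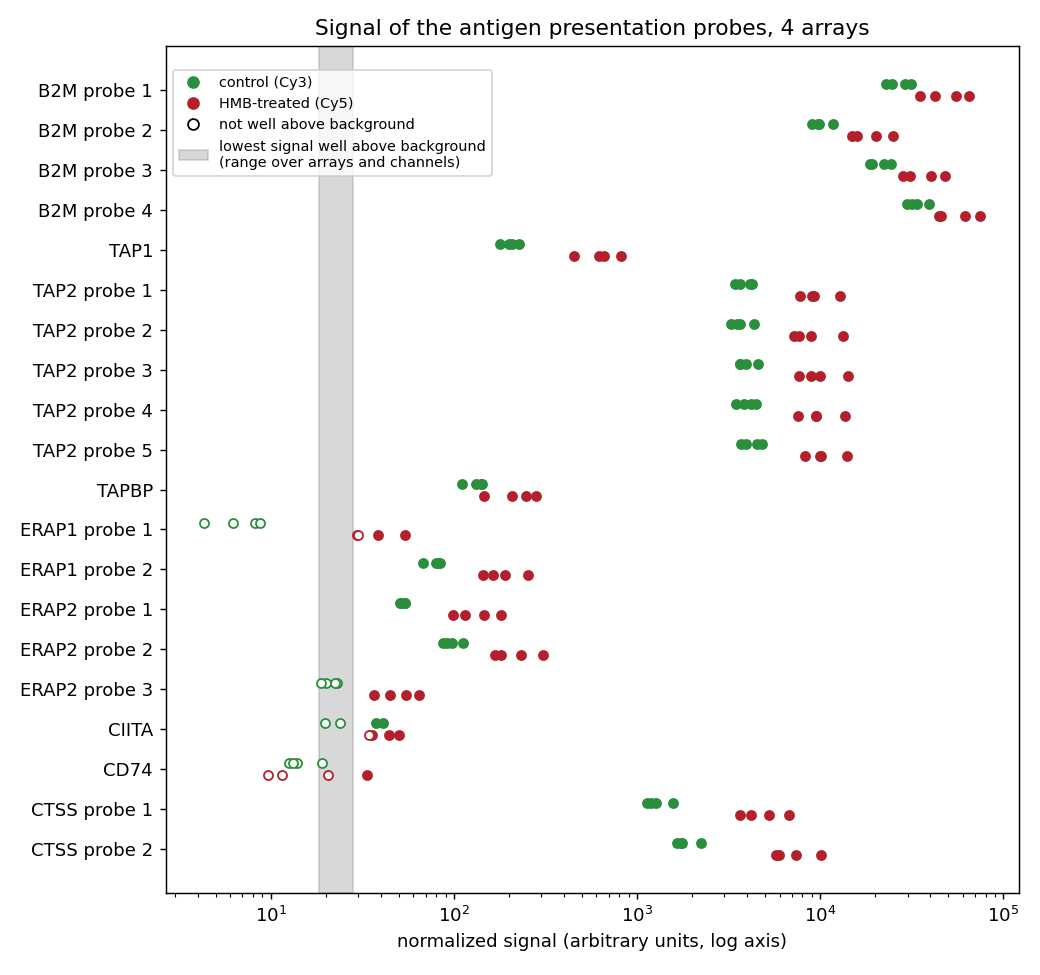
Normalized signal (x axis, log scale, arbitrary units) of each probe in the control channel (green) and the HMB channel (red) on 4 arrays, with open symbols where a signal was not well above background and a grey band at the lowest signals that were. The *CIITA* values lie in this band or somewhat above it, and most *CD74* values lie below it. The *B2M* probes reach 74752 in the HMB channel, and levels of different probes cannot be set against each other.

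Of the class II members, *CTSS* alone could be tested. *CTSS* probe 2 gave log2 ratios of 1.77, 2.16, 2.17 and 1.73, with a mean of 1.96 ± 0.24 (SD, n = 4) and a limma adjusted p of 3.91e-05. Probe 1 gave 1.73, 2.21, 2.09 and 1.60, so both probes of cathepsin S had their higher values on arrays 2 and 3. Control signals of probe 2 ran from 1653 to 2232 and HMB signals from 5764 to 10065. *CTSS* was called under every alternative tried.

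For *CIITA*, the control signal was 37.4, 23.9, 40.9 and 19.7, and the HMB signal was 44.1, 35.7, 50.2 and 34.2. The control channel was well above background on 2 arrays and the HMB channel on 3. The log2 ratio was 0.24, 0.58, 0.29 and 0.80, above 0 on every array, while the signals of the groups overlapped. Without the filter on dim probes, its limma adjusted p was 0.0729, so a change of the class II transactivator was not detectable at this signal. For *CD74*, the control signal was 12.6, 14.0, 19.1 and 13.2 and the HMB signal 9.60, 20.5, 33.5 and 11.5, with 1 of these 8 values well above background. Its log2 ratio was -0.39, 0.55, 0.81 and -0.20, with no shared direction, and the limma adjusted p without the filter was 0.668. A low signal of 1 probe is no measure of the amount of transcript, and these values do not show that the 2 genes were unchanged.

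Class I loading genes and class II members were set against each other as medians on each array. The class I median of 6 genes was 0.92, 1.44, 1.497 and 0.86. The only tested class II gene, *CTSS*, stood above it on every array, and the class I median minus *CTSS* was -0.85, -0.72, -0.68 and -0.86, with a mean of -0.78 ± 0.09 (SD, n = 4). This is a description without a test, and it rests on a single class II gene. When the filter on dim probes was dropped, *CIITA* and *CD74* entered the class II median and the sign turned, with a mean of 0.57 ± 0.35 (SD, n = 4). The sign of the comparison thus depends on which class II genes enter it.

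The order of the ratios was *CTSS*, *TAP1*, *TAP2*, *ERAP1*, *ERAP2*, *B2M* and *TAPBP*. The neighbours *TAP2*, *ERAP1* and *ERAP2* differed by less than the SD of any of them, as did *B2M* and *TAPBP*. *CTSS* and *TAP1* lay above *B2M* and *TAPBP* on every array. A shared array pattern was seen in nearly all probes. On 16 of the 17 tested probes, replicates 2 and 3 both lay above replicates 1 and 4, with *TAP1* as the exception. Among all tested probes the share was 21.4%, and among all probes called higher it was 43.0%. On the brightest probes, 6 of 7 genes showed it. The pattern was first noticed in these same probes, which are not independent, so this pattern is a description without a test. It separates the arrays into pairs, while the direction over control stayed the same on all of them.

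The other genes of the pathway were read from lists. The medians below are log2 ratios on the brightest tested probe. The median of all tested genes was -0.09, and 10.2% of them were called higher. The immunoproteasome was called higher in 5 of 5 genes, with a median of 1.64. These were the catalytic subunits *PSMB8* (2.83 ± 0.24), *PSMB9* (2.28 ± 0.26) and *PSMB10* (1.64 ± 0.34), and the activator subunits *PSME2* (1.23 ± 0.19) and *PSME1* (0.87 ± 0.16), all as mean ± SD with n = 4. *PSMB8* was 1.60 with normexp and 2.07 without background correction, called in both, and after scaling to the spike-in RNA the call of *PSME1* was lost, at a log2 ratio of 0.38.

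The next list held folding factors, peptidases and *SEC61* channel subunits. Of its 11 tested genes, 1 was called higher and 1 lower, and the median was 0.10. These shares are not above the 10.2% and 17.2% of all tested genes, and after scaling to the spike-in RNA 6 of the 11 were called lower. The gene called higher was *TAPBPL*, the tapasin-related editor of class I peptides, with log2 ratios of 1.11, 1.42, 1.46 and 1.07 and a limma adjusted p of 0.000151. The cytosolic peptidase *NPEPPS* was called lower at -0.41 ± 0.22 (SD, n = 4, limma adjusted p = 0.0145), a call that was lost with the methods' t-test, treat, no background correction, median centring and no filter on dim probes, and without replicate 4. The chaperones *CALR* (0.10 ± 0.13), *CANX* (-0.16 ± 0.12) and *PDIA3* (0.15 ± 0.56), which also serve most other glycoproteins, did not pass. The aminopeptidase *LNPEP*, a relative of *ERAP1* and *ERAP2*, had -0.32 ± 0.09, which passed the adjusted p with limma (0.00882) but not the FC on its brightest probe, while 2 of its 5 probes were called lower. With median centring the brightest probe was called lower as well, at -0.41.

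Upstream of both routes stand interferon signals. Of 4 tested genes, 3 were called higher, against 10.2% of all tested genes, and the median was 1.77. They were the kinase *JAK2* (2.36 ± 0.24) and the transcription factors *IRF1* (1.74 ± 0.11) and *IRF2* (1.80 ± 0.44). The control channel of *IRF2* was not well above background on any array, so it passed the filter only through its HMB channel. It is nevertheless part of the count and the median above. *JAK2* and *IRF1* were well above background in both channels on all arrays. The rise of *IRF2* is given as a bound, at least 2.63-fold on the deposited ratios (limma adjusted p = 0.000372). This bound did not hold with normexp, where *IRF2* was 0.42, nor without background correction, where it was 0.51, though it was called in both. *IRF1* was 0.83 and *JAK2* 1.68 with normexp, and *IRF1* was 1.13 without background correction, all called. The kinase *JAK1* had 0.03 ± 0.14 and was not called, and *IRF8* was too dim to be tested.

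Of the enhanceosome, the complex at class II and class I promoters on which *CIITA* and NLRC5 act, 1 of 5 tested genes was called higher, with a median of 0.06, and after scaling to the spike-in RNA 0 were called higher and 3 lower. This was *RFX5*, with log2 ratios of 1.00, 0.78, 0.68 and 0.83 and a limma adjusted p of 0.000354, and all 5 of its probes were called higher. Its call was lost with normexp (0.23), without background correction (0.33) and after scaling to the spike-in RNA (0.34), each time by FC. *RFXANK* (0.06 ± 0.12), *CREB1* (0.04 ± 0.16), *NFYB* (-0.10 ± 0.24) and *NFYC* (0.14 ± 0.04) were not called, and *NFYA* was too dim to be tested.

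Among the other endolysosomal proteases, 1 of 8 tested genes was called higher, with a median of 0.20. This is near the 10.2% of all tested genes called higher, and after scaling to the spike-in RNA 0 were called higher and 3 lower. Cathepsin H (*CTSH*) had log2 ratios of 0.49, 0.56, 0.77 and 0.60 and a limma adjusted p of 0.00106, a call that was lost with treat and after scaling to the spike-in RNA (0.12). Cathepsin B (*CTSB*), a broad lysosomal protease, had 0.03 ± 0.14, and legumain (*LGMN*) had 0.25 ± 0.14. The thiol reductase *IFI30*, which opens disulfide bonds of antigens, had 0.24 ± 0.16. These 3 genes did not pass the FC of 1.3.

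Class I-like chains were called higher in 2 of 4 tested genes, against 10.2% of all tested genes. *MR1* passed the filter only through its HMB channel. When both channels had to be well above background, 1 gene of this list was called higher. *MR1*, which presents vitamin metabolites to MAIT cells, was at least 2.88-fold higher on the deposited ratios (limma adjusted p = 7.91e-05), a bound because its control channel was not well above background on any array. It did not hold with normexp, where the log2 ratio was 0.42, nor without background correction, where it was 0.68, though *MR1* was called in both. *PROCR*, the protein C receptor, had 0.44 ± 0.13, was not called with treat and turned to -0.043 after scaling to the spike-in RNA. The lipid-presenting *CD1B* (-0.10 ± 0.22) and *CD1C* (0.11 ± 0.17) were not called, and *AZGP1*, *HFE* and *CD1D* were too dim to be tested.

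Of the costimulation and checkpoint ligands, 2 of 4 tested genes were called higher, against 10.2% of all tested genes. They were *CD40* (2.297 ± 0.17, limma adjusted p = 7.76e-06), a receptor for T cell help, which was 1.59 and called with normexp, and *ICOSLG* (1.39 ± 0.51, limma adjusted p = 0.00173), whose control channel was well above background on 1 array and whose call was lost with normexp (0.33, adjusted p = 0.0560), while it was 0.47 and called without background correction. *CD58* (0.36 ± 0.10) and *CD276* (0.06 ± 0.04) were not called. *ICOSLG* passed the filter only through its HMB channel, and 1 gene of this list was called higher when both channels had to be well above background. The checkpoint ligand *CD274* was not tested, because its control channel was not well above background on any array and its HMB channel was so on 3. Set against the lowest signal well above background, its HMB signal was 3.18-fold higher. Other background corrections were not tested for it. The B7 ligand *CD86* was not well above background in any sample.

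**Figure D3:**
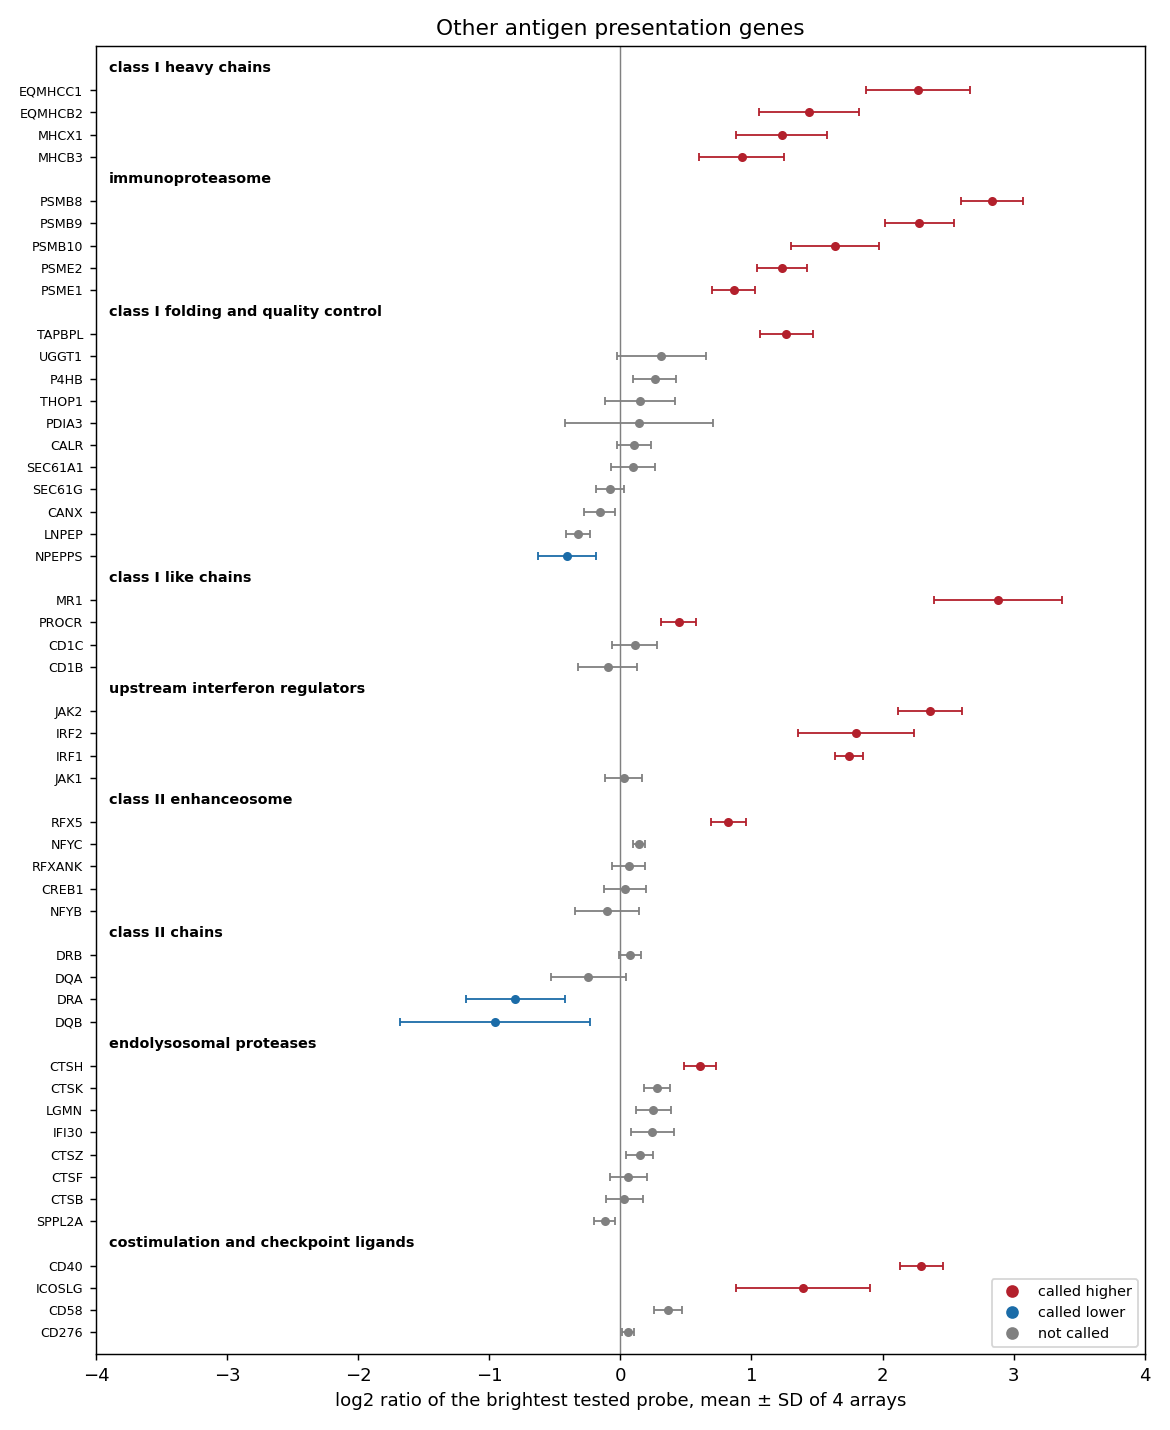
Mean log2 ratio and SD of 4 arrays (x axis) for the brightest tested probe of each other antigen presentation gene (y axis), grouped by list, in red where called higher, blue where called lower and grey where not called. All 5 immunoproteasome genes lie between 0.87 and 2.83, whereas the genes of the list of folding factors and peptidases, other than *TAPBPL*, lie between -0.41 and 0.31.

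The peptide-holding chains themselves were read from their probes. By symbol, the heavy chains *EQMHCC1* (2.27 ± 0.40), *EQMHCB2* (1.44 ± 0.38), *MHCX1* (1.23 ± 0.34) and *MHCB3* (0.93 ± 0.32) were called higher, 4 of 4 tested genes. Many MHC probes carry no such symbol, so all probes described in the files as an MHC class I or class II chain were also taken, a choice made after their values had been seen. Of 24 class I chain probes, 23 were tested and 18 were called higher, 0 lower, with a median of 1.29. The *MR1* probe, among the 18, passed the filter only through its HMB channel. Of all tested probes, 12.1% were called higher and 16.4% lower. The class I chains other than *EQMCE1* and *MR1*, a split also made with the values known, were called higher on 16 of 16 probes, between 0.83 and 2.27. On *EQMCE1*, 1 of 6 probes was called, with means from 0.32 to 0.60, and the 5 others passed the adjusted p but not the FC of 1.3. These 5 share 56 to 59 bases and measure 1 stretch of RNA, so they are not separate readings. The 1 probe not tested belonged to a pseudogene.

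Of 32 class II chain probes, 14 were tested, 1 was called higher and 2 lower, and the median of the tested probes was 0.09. This count is near the 28.6% of all tested probes called, and after scaling to the spike-in RNA 0 were called higher and 8 lower, with all 4 class II chain genes among the lower ones. On the single arrays this median was 0.08, 0.04, 0.05 and 0.15, against 0.97, 1.43, 1.60 and 1.03 for class I. Another 14 class II probes were not well above background in any sample. *DRA* was called lower, with -0.96, -0.47, -0.51 and -1.26 (limma adjusted p = 0.00523), and its HMB channel was well above background on 3 arrays. *DQB* was called lower at -0.96 ± 0.73 (SD, n = 4, limma adjusted p = 0.0231), with the HMB channel well above background on 1 array. Both genes passed the filter only through the control channel. When both channels had to be well above background, 0 class II chain genes were called lower. Both calls were also lost with the methods' t-test, with treat, with normexp (-0.22 and -0.11), without background correction (-0.35 and -0.22) and without the filter on dim probes, and *DQB* was also lost without replicate 2 (adjusted p = 0.0551). *DQA* had -0.24 ± 0.29 and was not called. Of the probes under the symbol *DRB*, 8 of 14 were tested, with means from 0.03 to 0.65. The one at 0.65 was called higher, a call that was lost with normexp. Most of the untested probes under this symbol are described in the files as a DQ-beta chain.

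**Figure D4:**
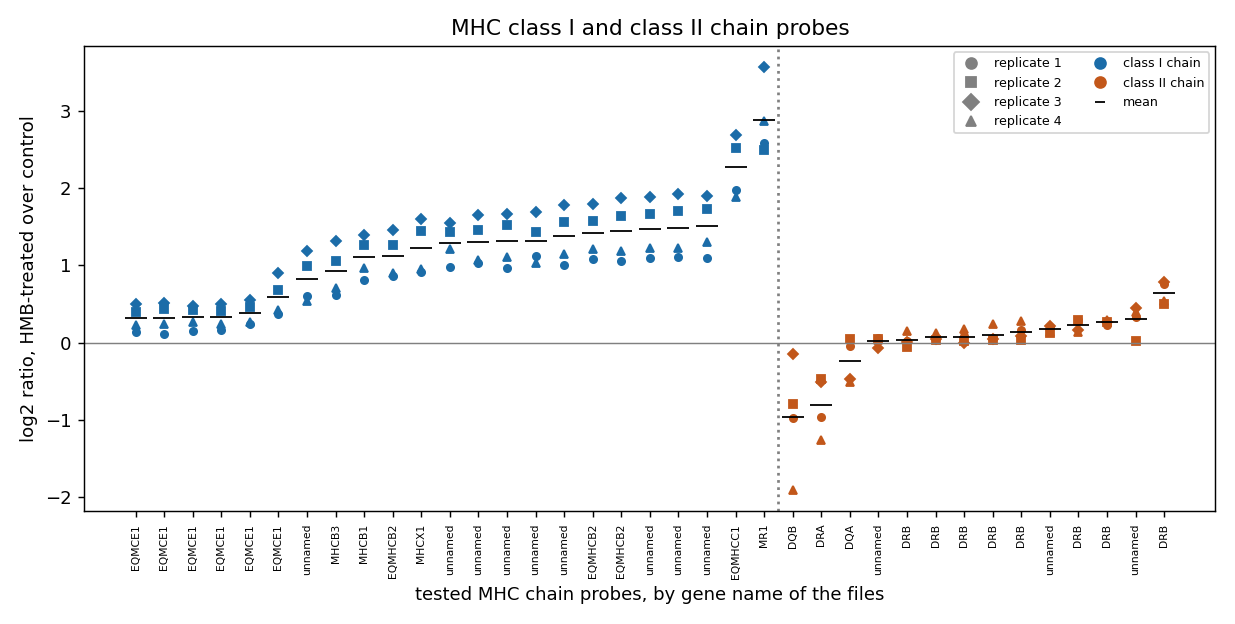
The log2 ratio (y axis) of each tested MHC chain probe (x axis) on 4 arrays, with class I in blue, class II in orange and a bar at the mean. The class I means other than *MR1*, whose control channel was at background, run from 0.32 to 2.27, and the class II means from -0.96 to 0.65.

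The MHC genes are many, near-identical and variable between horses. Of the 253 pairs of tested class I probes, 10 shared a run of 30 bases or more, and all of these lay among the 5 *EQMCE1* probes that were not called. Binding of 1 transcript to several probes was not tested, so the number of chains that rose is uncertain.

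Markers of other cells were read beside these genes. Of all tested genes, 10.2% were called higher and 17.2% lower. Of 16 leukocyte and antigen-presenting cell markers with a probe, 4 were well above background in both channels on all arrays, and 10, with *ITGAM*, *ITGAX*, *TYROBP*, *CD3E* and *CD79A* among them, were not so in any sample. Of the 4, *CD68* (0.88 ± 0.20) was called higher and *FCER1G* (-0.50 ± 0.12) lower, and *CD14* (0.20 ± 0.19) and *MS4A1* (-0.16 ± 0.17) were not called. The summed signal of this list was 4028 to 4979 in the control and 4468 to 6671 with HMB. None of 6 endothelial markers was well above background on all arrays. Of 5 fibroblast markers, *PDGFRA*, *DCN*, *THY1* and *LUM* were called higher and *COL3A1* (0.06 ± 0.29) was not called on its brightest probe but was called higher on 3 of 7 probes, and the summed signal was 194231 to 222834 in the control and 223299 to 339784 with HMB. Of 9 myogenic markers, 7 were called lower, *MYF5*, *DES* and *ACTA1* among them, and 0 were called higher. *MYF6*, also among the 7, passed the filter only through its control channel. *MYOD1* (0.32 ± 0.25) and *MYOG* (0.03 ± 0.22) were not called. The summed signal of the myogenic markers was 174581 to 195400 in the control and 67589.8 to 106252 with HMB. The part of these shifts in the antigen presentation ratios was not tested.

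All 7 tested genes had a positive log2 ratio under each of the alternatives tried. Scaling to the spike-in RNA, chosen after the data were seen, moved the median of all tested probes from -0.07 to -0.56. There *TAPBP* and the brightest *B2M* probe were no longer called, while *B2M* probe 2 still was, at 0.39. *TAP1*, *TAP2*, *ERAP1*, *ERAP2* and *CTSS* were called, against 5.05% of all tested probes called higher.

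**Figure D5:**
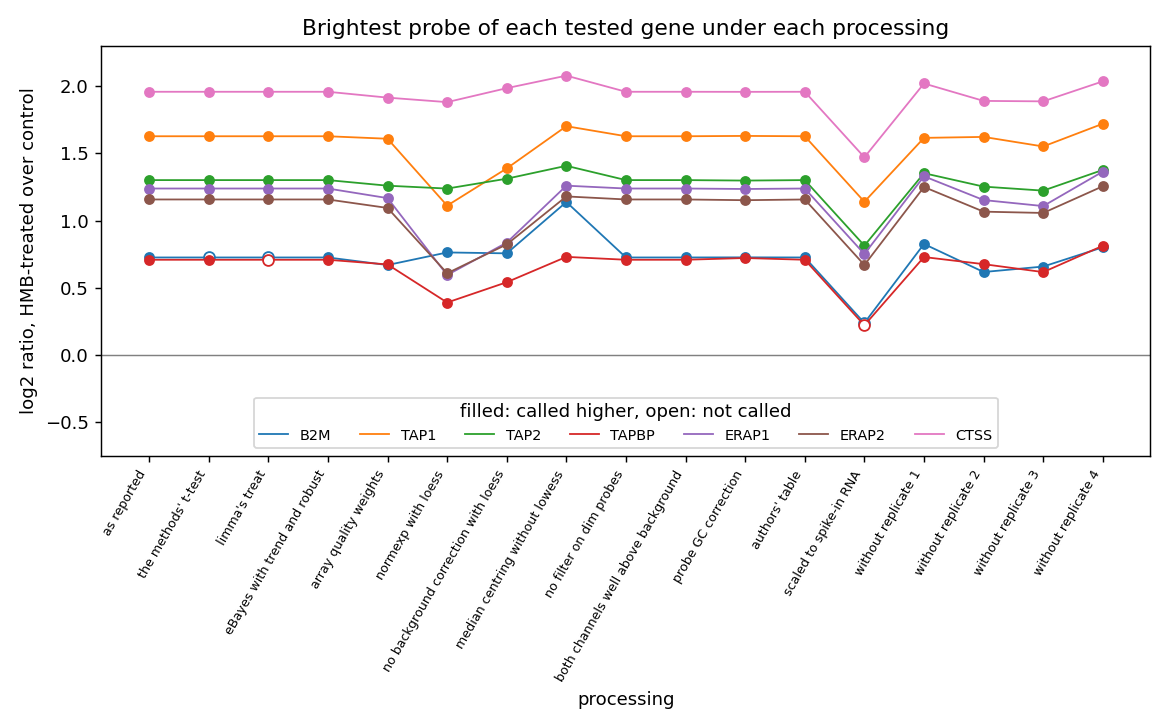
Log2 ratio (y axis) of the brightest probe of each tested gene under each processing (x axis), with filled symbols where called higher and open symbols where not called. *CTSS* stays between 1.47 and 2.08 and is always filled, whereas *B2M* and *TAPBP* are lowest at 0.24 and 0.22 after scaling to the spike-in RNA.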

How the data were processed

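The authors hybridized HMB-treated (Cy5) and control (Cy3) RNA together on 4 Agilent horse arrays, which share 1 slide, so no slide effect could be estimated. The deposited intensity values were background-subtracted and linear and lowess normalized within each array by Feature Extraction (10.10.1.1 per the file headers), and the deposited log10 ratios are Cy5 over Cy3. The series' value table by the authors differed from these log10 ratios by at most 3.96e-05. The log2 ratios used here are the deposited log10 ratios after a change of base. Control spots and spots flagged as non-uniform or outliers (13 to 35 per array) were left out, spots of 1 probe were averaged, and a ratio was required on at least 3 arrays. Between 57.6% and 60.6% of the Cy3 spots and between 55.2% and 61.8% of the Cy5 spots were well above background, and 0 were saturated. The number of arrays limits the precision.

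The test was an intercept model in limma 3.58.1 (R 4.3.3) with empirical Bayes moderation and Benjamini-Hochberg correction over 24669 probes. The test was tried on simulated data. Bounds used channels after Aquantile and set the dim channel to the lowest signal well above background on each array, or to its own signal where that was higher. Some signals over this level were not well above background, so the bounds are not strict. Symbols came from the files, then from RefSeq accessions. Named genes were the 10 members with every probe, all measured genes of lists of up to 8 measured genes, the called and defining genes of longer lists, and markers above background. Some genes of the lists are not reported here. Members, lists and tests were chosen with earlier results of these data known. The alternatives were the methods' t-test, treat, trend and robust moderation, array weights, normexp (offset 50) with loess, loess alone, median centring, no or a stricter filter on dim probes, GC correction, gene means, the authors' table, single replicates left out, and spike-in scaling by the header intercept.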

Additional observations from a re-analysis of the deposited data

How the results depend on the processing

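The number of member genes called on the brightest tested probe was 5 with treat and with spike-in scaling, and 6 with the methods' t-test. It was 7 under all other alternatives, each replicate left out included. Over all probes, 7046 were called. This was 2822 with treat, 3538 with normexp, 4439 without background correction and 18570 with spike-in scaling, and 6641 to 7155 with a replicate left out. Higher probes made up 42.5% of those called, and 54.6%, 55.0%, 60.1% and 6.72% of those called under these 4 alternatives. The class I median minus *CTSS* was -1.19 with normexp and -1.14 without background correction, -0.81 to -0.75 with a replicate left out, and reversed to 0.57 without the filter, where 2 dim class II genes joined. Of the other antigen presentation genes, 22 were called, 21 to 23 with a replicate left out and 35 with spike-in scaling, where those called higher went from 19 to 15 and those called lower from 3 to 20. Normexp moved 12 of the called values of single probes and genes by over 1.5 times and loess without background correction 8, while no other alternative did so. Under spike-in scaling, the log2 ratio turned to -0.39 for *CALR*, -0.39 for *SEC61A1*, -0.38 for *CD1C*, -0.043 for *PROCR*, -0.41 for *DRB*, -0.46 for *CTSB*, -0.43 for *CTSF*, -0.45 for *CREB1*, -0.43 for *RFXANK*, -0.46 for *JAK1* and -0.43 for *CD276*. The spike-in scaling subtracted an intercept of 0.37 to 0.57 (log2), and the cause was not tested further. Without the filter, *ERAP1* probe 1 was called (2.47, adjusted p = 0.00483). The planned scaling of background-subtracted signals to the spike-in spots was not run. No paired analysis was possible because there is 1 group of ratios, each already paired within its array. Signals near background left *CIITA* and *CD74* without a test and gave *ERAP2* probe 3 a bound only.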
